A study of Danio rerio with 6 samples.

Results

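The 6 HMGB genes of the zebrafish (hmgb1a, hmgb1b, hmgb2a, hmgb2b, hmgb3a and hmgb3b) were followed through the cell classes of adult ventricles, sham-operated or injured. They were chosen by their symbols, 6 of the 27771 genes in the deposited feature lists, and the set was selected on a measured value, the high hmgb3a level of cardiomyocytes at 3 dpa. For that reason the stage differences in cardiomyocyte-like cells are given as a description without a test. The deposited identifiers were ENSDARG00000099175 (hmgb1a), ENSDARG00000030479 (hmgb1b), ENSDARG00000029722 (hmgb2a), ENSDARG00000053990 (hmgb2b), ENSDARG00000056725 (hmgb3a) and ENSDARG00000006408 (hmgb3b). Single-cell 3′ RNA sequencing had been done on 6 libraries, 1 for each combination of genotype and stage. The genotypes were WT and clofv087b/+, a heterozygote, and the stages were sham, 3 dpa and 7 dpa (days post amputation). Each library was made from cells of 15 pooled ventricles, sorted by Hoechst signal, so differences between fish within a group could not be seen. The treatment label of the sham libraries reads untreated, while their titles read sham.

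HMGB proteins are abundant chromatin proteins that bend DNA through HMG boxes and loosen the packing of nucleosomes. In mammals HMGB1 is present in most cell types and, once released from damaged cells, signals to receptors of the innate immune system. In mammals HMGB2 is known for its high level in dividing cells and HMGB3 for its expression in embryos and in blood progenitors. Zebrafish carry an a and a b copy of each gene. The adult zebrafish ventricle regrows after amputation of its apex, and epicardium, fibroblasts, endothelium, macrophages and cardiomyocytes all take part.

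The libraries held between 9445 and 14816 barcodes and between 63752936 and 117947578 UMIs (unique molecular identifiers, each standing for 1 captured RNA molecule). After filtering, 59147 cells remained, with a median of 4351.5 to 7663 UMIs per cell in a library. Pairs of libraries shared between 23 and 60 cell barcodes. The median mitochondrial share of the UMIs was 8.06% and 8.77% in the 3 dpa libraries and 3.42% to 4.87% in the other 4. Whether this difference had a part in the 3 dpa results was not tested. Classes carry the ending -like because they were rebuilt from marker genes, and 6 of them had at least 50 cells in every library. These held 1301 to 3306 cardiomyocyte-like cells per library, 317 to 1752 endothelial-like, 433 to 1882 epicardium- or fibroblast-like, 1785 to 2938 macrophage-like, 85 to 331 mural-like and 58 to 666 thrombocyte-like cells. In each of the 6 classes, all 7 or 8 genes of its own marker list were detected in every library. The clusters were named by these lists, so this is no check of the names. All genes of the cardiomyocyte and macrophage lists were also detected in the other classes. The highest foreign level was that of the thrombocyte list in epicardium- or fibroblast-like cells, 12.3% to 49.9% of its level in thrombocyte-like cells. None of the 6 HMGB genes entered the clustering.

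All 6 genes were detected in every library of these 6 classes. Each was tested between genotypes in all 6 classes, and between stages in the 5 classes other than cardiomyocyte-like cells. The level of a gene in a class and library is its UMIs over all cells, scaled to the UMIs of all genes in the same cells and given in CPM. By the median over the 6 libraries, hmgb1a was highest in thrombocyte-like cells, with a range of 787 to 1131 CPM around a median of 830 CPM. It was lowest in cardiomyocyte-like cells, with a median of 105 CPM and a range of 85.5 to 385 CPM. For hmgb1b, mural-like cells had the highest median, 180 CPM, and macrophage-like cells the lowest, 14.2 CPM. These orders cover the 6 tested classes alone. They say where among these classes a gene's RNA was most frequent, and values of different genes were not compared with each other.

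For hmgb2a the highest medians were 669 CPM in thrombocyte-like and 591 CPM in macrophage-like cells. Macrophage-like cells also had the highest medians of hmgb2b, 210 CPM, and of hmgb3b, 81.5 CPM. The hmgb3b median of cardiomyocyte-like cells, 80.3 CPM, lay next to it. With doublets kept and classes rebuilt the order of these classes turned, with hmgb3b at 87.8 CPM in cardiomyocyte-like and 81.8 CPM in macrophage-like cells. For hmgb3a the order was different, with cardiomyocyte-like cells first at 46.1 CPM, mural-like cells second at 33.2 CPM and macrophage-like cells last at 2.81 CPM. Neighbouring classes in these orders mostly overlapped in their ranges over libraries. The neighbours that did not overlap were endothelial-like over cardiomyocyte-like cells for hmgb1b and epicardium- or fibroblast-like over cardiomyocyte-like cells for hmgb2b, 2 in all.

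**Figure D1:**
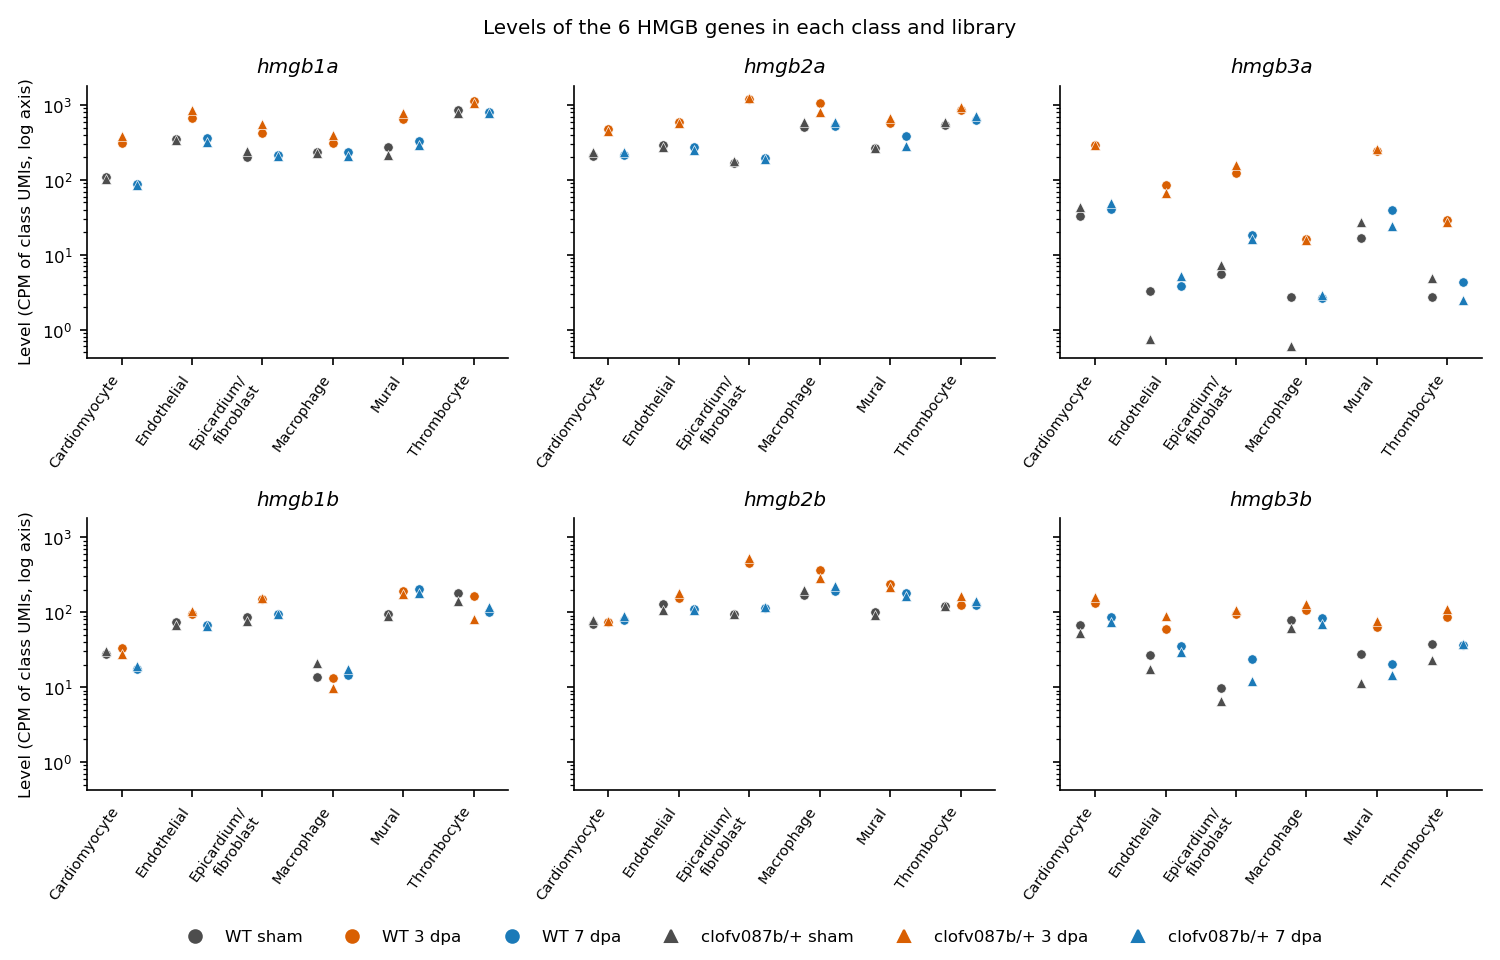
Level of each HMGB gene in CPM of the class UMIs (log axis) in the 6 tested classes; each point is 1 library, coloured by stage and shaped by genotype, with no error bar. The 3 dpa points of hmgb3a lie above the sham and 7 dpa points in all 6 classes. In cardiomyocyte-like cells the 3 dpa points of hmgb2b lie close to the others. Those of hmgb1b there lie close to the sham points and above the 7 dpa points.

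In cardiomyocyte-like cells of WT the hmgb3a level was 33.1, 291 and 41.3 CPM (sham, 3 dpa, 7 dpa). The clofv087b/+ libraries had 43.4, 291 and 48.8 CPM in that order. Both 3 dpa libraries were far above the other 4, and the 7 dpa libraries were close to the sham libraries. These values chose the gene set. The level at 3 dpa was 8.77-fold that of sham in WT (95% interval 8.35 to 9.21) and 6.70-fold in clofv087b/+ (6.30 to 7.12). These intervals, exact and conditional on the summed UMIs, cover counting error only, since there was 1 library per group.

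Over cardiomyocyte-like clusters with at least 20 cells in a library, the 9 sums at 3 dpa ranged from 265 to 443 CPM, and the 17 sums at sham or 7 dpa ranged from 28.1 to 93.7 CPM. The difference was seen in each of the 4 clusters that had such sums on both sides. Of the others, a cluster led by rsad2 and ifi45 had a sum at 3 dpa alone (77 WT cells, 330 CPM). A cluster led by zgc:162608 and zgc:122979 had a sum at sham alone (268 WT cells, 28.1 CPM). The difference was also seen as a share of cells. The cluster sums and the shares are parts of the values that chose the gene set, so they are no separate support for it. With every cell thinned to 1000 UMIs, 22.5% of WT cells at 3 dpa had an hmgb3a UMI (exact binomial 95% interval 21.0% to 24.1%). The shares were 3.54% at sham and 3.45% at 7 dpa in WT. In clofv087b/+ the thinned shares were 4.81%, 24.5% and 3.72% in the same order. Without thinning, the WT shares were 33.8%, 85.9% and 40.0% at median depths of 17388, 16924 and 19545 UMIs. Erythrocyte-like cells, taken as the background from free RNA, had unthinned shares from 0% to 3.76% at median depths of 620 to 1772 UMIs. Thinned to 1000 UMIs, their shares were 1.09% and 3.66% in the 3 dpa libraries.

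**Figure D2:**
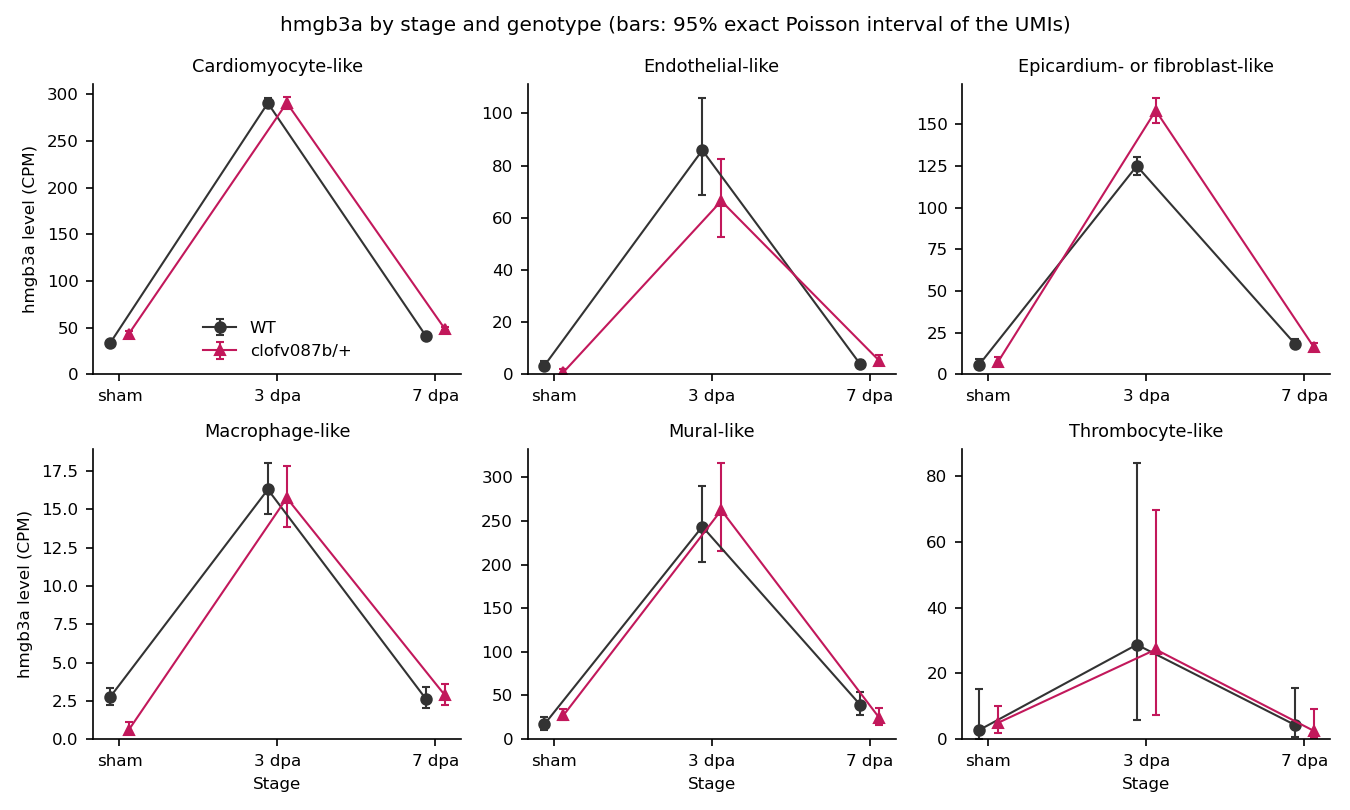
Level of hmgb3a in CPM (linear axes that differ between panels) by stage in the 6 classes; circles are WT and triangles clofv087b/+, 1 library each, and bars are 95% exact Poisson intervals of the UMI counts. In each panel both genotypes are highest at 3 dpa.

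Outside the cardiomyocytes, hmgb3a rose at 3 dpa in endothelial-like, epicardium- or fibroblast-like and mural-like cells. These tests used edgeR's quasi-likelihood fit with genotype as a block and p-values adjusted over all genes of the class. The stage effect common to both genotypes was therefore tested against how far the genotypes differed in it, with 2 residual degrees of freedom. That spread was drawn towards a trend over all genes of the class. The trend counted for 3.92 (macrophage-like) to 21.1 (thrombocyte-like) further degrees of freedom, so the p-values do not rest on a gene's own spread alone. In endothelial-like cells hmgb3a was at 3.33, 85.9 and 3.87 CPM in WT (sham, 3 dpa, 7 dpa). In clofv087b/+ it was at 0.761, 66.4 and 5.22 CPM. The 3 dpa libraries stood apart from the other 4, which rest on few molecules, 4 to 31 UMIs each. The fitted log2 fold change was 4.87 (SE 0.45, edgeR adjusted p = 0.00162). It was 6.26 without the WT sham library and 4.12 without the clofv087b/+ sham library, and passed the threshold in both fits.

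In epicardium- or fibroblast-like cells the hmgb3a levels were 5.54, 125 and 18.4 CPM in WT. They were 7.27, 158 and 16.5 CPM in clofv087b/+. The 3 dpa libraries were highest, and the 7 dpa libraries lay above both sham libraries. At 3 dpa the log2 fold change over sham was 3.90 (SE 0.27, edgeR adjusted p = 1.28e-05). In mural-like cells the levels were 17.0, 244 and 39.3 CPM in WT. They were 27.2, 262 and 24.5 CPM in clofv087b/+, and again the 3 dpa libraries did not overlap with the rest. The log2 fold change was 3.03 (SE 0.36, edgeR adjusted p = 0.00270). Without the clofv087b/+ 3 dpa library the mural-like call was lost, with a log2 fold change of 2.95 and an adjusted p of 0.0587.

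Macrophage-like and thrombocyte-like cells did not pass the threshold for hmgb3a. In macrophage-like cells it was at 2.73, 16.3 and 2.64 CPM in WT, against 0.613, 15.7 and 2.88 CPM in clofv087b/+. The 3 dpa libraries were the highest, with a log2 fold change of 3.12 (SE 0.56, edgeR adjusted p = 0.0589). It passed in DESeq2's Wald test on the same sums, with an adjusted p of 1.10e-06. That test called 504 of the 14661 genes of this class as higher, against 102 by edgeR. In edgeR hmgb3a also passed without the clofv087b/+ sham library, with a log2 fold change of 2.29. That fit called more genes of the class as higher than the full fit did. In thrombocyte-like cells hmgb3a rested on 1 to 7 UMIs per library, and its log2 fold change of 2.49 had an SE of 0.94 (edgeR adjusted p = 0.167). It lay between 27.3 and 28.8 CPM in the 3 dpa libraries and between 2.53 and 4.93 CPM in the other 4. Genes with low counts were filtered out before the fits, and only the 3 dpa libraries brought hmgb3a past that filter here. The sign of this change was therefore set beforehand.

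RNA freed from cardiomyocytes can enter droplets that hold other cells, and its extent was read from 7 cardiomyocyte markers. Their summed level in a class is given as a percentage of their level in cardiomyocyte-like cells of the same library. None of the 7 was at 0 in epicardium- or fibroblast-like or mural-like cells of any library. In epicardium- or fibroblast-like cells at 3 dpa the hmgb3a level was 43.0% of the cardiomyocyte-like level in WT and 54.4% in clofv087b/+. The markers were at 1.89% and 1.54% there. In mural-like cells at 3 dpa hmgb3a was at 83.8% and 90.3%, and the markers were at 5.25% and 3.57%. In endothelial-like cells hmgb3a was at 29.6% and 22.9%, and the markers were at 6.94% and 5.57%. In these 3 classes the hmgb3a percentage was above that of the markers in both 3 dpa libraries. Erythrocyte-like cells, the free-RNA background, had hmgb3a at 24.95 CPM (11 UMIs) in WT and 44.5 CPM (25 UMIs) in clofv087b/+ at 3 dpa, with markers at 16.8% and 23.4%. The endothelial-like levels of 85.9 and 66.4 CPM were the nearest to this background among the 3 classes, and the part of free RNA in them was not tested. In macrophage-like cells hmgb3a was at 5.61% and 5.42%, with markers at 3.04% and 2.43%. In thrombocyte-like cells the percentages were alike, 9.90% and 9.39% for hmgb3a and 9.93% and 8.59% for the markers.

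**Figure D3:**
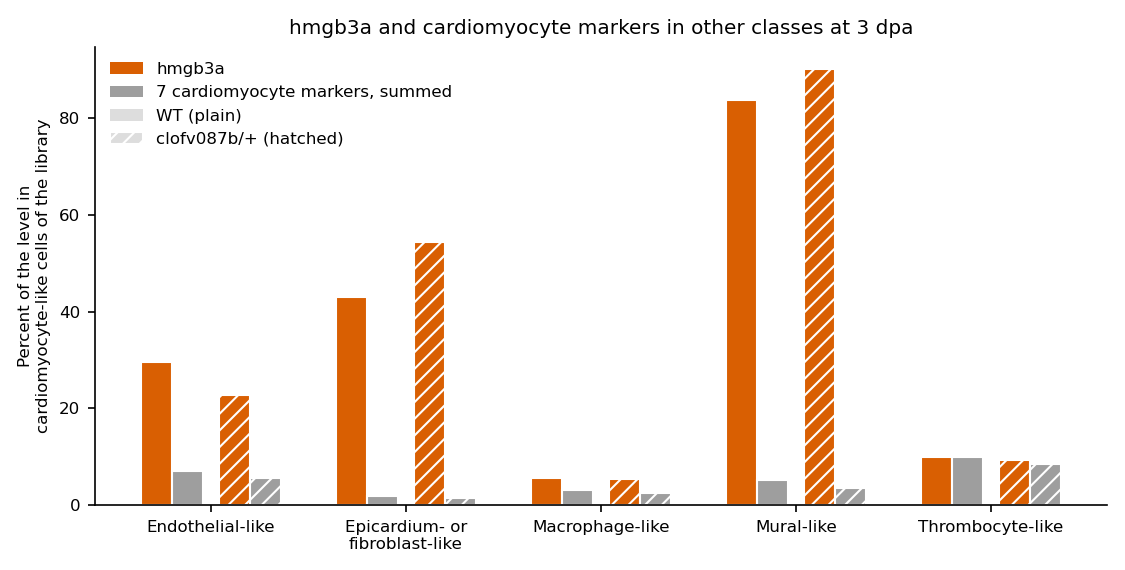
Level of hmgb3a (orange) and summed level of 7 cardiomyocyte markers (grey) in 5 other classes at 3 dpa, as a percentage of the level in cardiomyocyte-like cells of the same library; plain bars are WT and hatched bars clofv087b/+, 1 library each, with no error bar. The orange bars reach 83.8% and 90.3% in mural-like cells, and are close in height to the grey bars in thrombocyte-like cells.

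The paralogue hmgb3b rose at 3 dpa in epicardium- or fibroblast-like cells. There it was at 9.78, 95.7 and 23.8 CPM in WT, against 6.54, 108 and 12.0 CPM in clofv087b/+. Both injured libraries of 3 dpa were above the other 4, with a log2 fold change over sham of 3.13 (SE 0.33, edgeR adjusted p = 6.57e-05). In the endothelial-like, mural-like and thrombocyte-like classes the 3 dpa libraries were also highest. The log2 fold changes were 1.45, 1.49 and 1.69, with edgeR adjusted p-values of 0.0589, 0.0534 and 0.0524, and none passed the threshold. Each passed in 3 or 4 of the 6 fits that left out a library. In endothelial-like cells every such fit also called more genes of the class as higher than the full fit did. These passes are therefore not read as results. In macrophage-like cells, the class with the highest median of hmgb3b, the log2 fold change was 0.57 (SE 0.26, edgeR adjusted p = 0.253). In cardiomyocyte-like cells hmgb3b was at 66.8, 133 and 86.9 CPM in WT, against 52.0, 158 and 73.7 CPM in clofv087b/+. The 3 dpa level was 1.99-fold that of sham in WT and 3.04-fold in clofv087b/+.

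The balance of the hmgb3 copies differed between classes. Of all hmgb3 UMIs, hmgb3a made up 0.973% to 13.2% in macrophage-like cells over the 6 libraries. In mural-like cells its share was 37.9% to 79.4%, and the ranges of these classes did not overlap. In cardiomyocyte-like cells the WT share was 33.2%, 68.7% and 32.2% (sham, 3 dpa, 7 dpa). In clofv087b/+ it was 45.5%, 64.8% and 39.8%. For the hmgb1 copies, hmgb1a made up 91.4% to 97.6% of the UMIs in macrophage-like cells and 61.5% to 81.5% in mural-like cells. How reads shared by near-identical copies had been counted is not given in the sources used here, so such shares are uncertain.

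Both hmgb2 copies rose at 3 dpa in epicardium- or fibroblast-like cells. There hmgb2a was at 167, 1201 and 196 CPM in WT, against 177, 1228 and 188 CPM in clofv087b/+. Both 3 dpa libraries stood apart, and the 7 dpa libraries lay far below them but above both sham libraries. Its log2 fold change was 2.26 (SE 0.21, edgeR adjusted p = 3.41e-05). For hmgb2b the levels were 94.8, 459 and 115 CPM in WT and 95.4, 526 and 117 CPM in clofv087b/+. It followed the same order, with a log2 fold change of 1.81 (SE 0.21, edgeR adjusted p = 0.000115).

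In the other 4 tested classes neither hmgb2 copy passed the threshold. The fitted log2 fold changes of hmgb2a lay between 0.55 in thrombocyte-like and 0.77 in mural-like cells. Those of hmgb2b lay between 0.17 in endothelial-like and 0.81 in mural-like cells. In cardiomyocyte-like cells the copies differed. There hmgb2a was at 210, 473 and 218 CPM in WT, against 237, 456 and 233 CPM in clofv087b/+, with both 3 dpa libraries highest. In the same cells hmgb2b was at 70.2, 73.7 and 78.6 CPM in WT, against 77.5, 75.4 and 88.5 CPM in clofv087b/+. At 3 dpa its level was 1.05-fold that of sham in WT (95% interval 1.0 to 1.1) and 0.972-fold in clofv087b/+ (0.915 to 1.03).

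Of the hmgb1 copies, hmgb1a rose at 3 dpa in mural-like and in epicardium- or fibroblast-like cells. In mural-like cells it was at 277, 642 and 329 CPM in WT, against 213, 782 and 290 CPM in clofv087b/+. The 3 dpa libraries did not overlap with the others, and the log2 fold change was 1.1 (SE 0.27, edgeR adjusted p = 0.0357). This call was lost without the clofv087b/+ sham library (adjusted p = 0.2745) and without the clofv087b/+ 3 dpa library (adjusted p = 0.217).

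In epicardium- or fibroblast-like cells hmgb1a was at 201, 422 and 212 CPM in WT, against 246, 550 and 211 CPM in clofv087b/+. The 3 dpa libraries were highest, with a log2 fold change of 0.56 (SE 0.21, edgeR adjusted p = 0.0498). The call was lost in 5 of the 6 fits that left out a library, the exception being the fit without the WT 3 dpa library, with adjusted p-values of 0.0956 to 0.242. In endothelial-like cells hmgb1a had a log2 fold change of 0.82 (SE 0.24, edgeR adjusted p = 0.112). It passed without the WT 3 dpa library, in a fit that also called more genes of the class as higher than the full fit did. In cardiomyocyte-like cells hmgb1a was at 108, 312 and 89.2 CPM in WT, against 102, 385 and 85.5 CPM in clofv087b/+, with both 3 dpa libraries highest. The copy hmgb1b was at 27.9, 32.9 and 17.6 CPM in WT cardiomyocyte-like cells and at 30.2, 27.8 and 18.9 CPM in clofv087b/+. Its lowest values there were those of the 7 dpa libraries. In macrophage-like cells the log2 fold change of hmgb1b at 3 dpa was -0.76 (SE 0.25, edgeR adjusted p = 0.152), and it passed the threshold in none of the 5 classes.

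In all, 8 of the 30 tests of a member in a class passed the threshold at 3 dpa, all 8 higher, and 21 had an unadjusted p under 0.05. Without the clofv087b/+ 3 dpa library the count was 5. Among the 30 is hmgb3a in thrombocyte-like cells, which passed the filter on low counts through its 3 dpa libraries alone. The share of all tested genes that rose differed widely between the classes. It was 23.9% in epicardium- or fibroblast-like cells, where 5 of 6 members rose. It was 4.89% in mural-like cells, where 2 of 6 rose, and 0.884% in endothelial-like cells, where 1 of 6 rose. It was 0.696% in macrophage-like and 0.792% in thrombocyte-like cells, where 0 of 6 members passed edgeR's threshold. In macrophage-like cells 4 members, and in thrombocyte-like cells 3, had an unadjusted p under 0.05. An unadjusted edgeR p under 0.05 was common among all tested genes. In epicardium- or fibroblast-like cells 7701 of 14387 genes had it, and in mural-like cells 1992 of 7645. In endothelial-like cells 2215 of 12332 had it, and in macrophage-like cells 3355 of 14661. The 21 is to be read against these numbers. None is given for thrombocyte-like cells, so their count of 3 is not read as a result. By DESeq2 hmgb3a was called in macrophage-like cells, where that test called 504 of 14661 genes as higher. No member fell, while 22.1%, 4.58%, 0.851%, 0.532% and 1.69% of all tested genes fell in these classes, in the order named. The epicardium- or fibroblast-like count is to be read against its large background share.

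The scaling of edgeR (TMM) took part of the difference in CPM into its factors. Between sham and 3 dpa these moved by 0.13 on the log2 scale in cardiomyocyte-like and in thrombocyte-like cells, by 0.18 in macrophage-like and by 0.34 in endothelial-like cells. They moved by 0.46 in mural-like and by 0.56 in epicardium- or fibroblast-like cells. Ratios of CPM at 3 dpa are larger than the fitted fold changes by about these amounts.

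**Figure D4:**
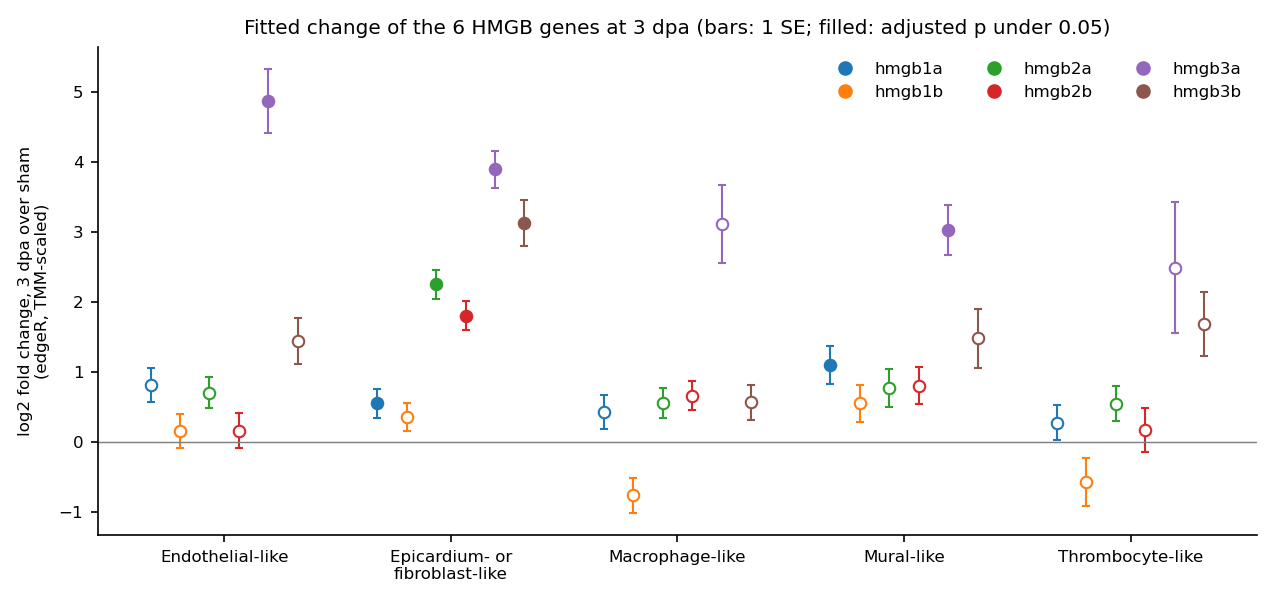
Fitted log2 fold change at 3 dpa over sham of the 6 HMGB genes in the 5 classes other than cardiomyocyte-like cells (edgeR, 6 libraries, genotype as a block); bars are 1 SE and filled points have an adjusted p under 0.05. There are 8 filled points, and hmgb3a has the largest value in each of the 5 classes. In thrombocyte-like cells hmgb3a passed the filter on low counts through the 3 dpa libraries alone, so its positive value there was set beforehand.

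At 7 dpa 1 of the 30 tests passed, hmgb3a in epicardium- or fibroblast-like cells, whose levels are given above. Its log2 fold change over sham was 1.26 (SE 0.27, edgeR adjusted p = 0.0186), and 6.23% of all tested genes rose in that contrast. The call was lost without the WT sham library (adjusted p = 0.0893) and without the WT 7 dpa library (adjusted p = 0.187). Its paralogue hmgb3b had a log2 fold change of 0.92 (edgeR adjusted p = 0.106). A collagen-rich cluster led by col12a1a and postnb held 532 of these cells, 235 of them from the WT and 272 from the clofv087b/+ library of 7 dpa. In it hmgb3a was at 56.3 CPM in WT and 61.3 CPM in clofv087b/+ at 7 dpa. In a cluster led by ccl25b and dpt the 7 dpa values were 14.1 and 9.75 CPM, against 7.93 and 9.45 CPM at sham. In the remaining classes 0 of 24 tests passed by edgeR and 0 by DESeq2. One of the 24, hmgb1b in mural-like cells, had an unadjusted p under 0.05 by edgeR, as did 1677 of the 7645 genes tested there. In endothelial-like cells hmgb3a passed without the WT sham library, in a fit that also called more genes of the class as higher than the full fit did. The shares of all genes that rose there were 0.560% in endothelial-like, 0% in macrophage-like, 4.24% in mural-like and 0.748% in thrombocyte-like cells.

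The genotypes were compared over the 3 stages, with stage as a block and cardiomyocyte-like cells included. None of the 36 tests of a member passed, with 0 at an unadjusted p under 0.05 by edgeR. DESeq2 also called 0 of the 36, with 0 at an unadjusted p under 0.05. Of all tested genes, 0.462% passed in thrombocyte-like cells and 0% in each of the other 5 classes. For hmgb3a in cardiomyocyte-like cells the log2 fold change of clofv087b/+ over WT was 0.18 (SE 0.13, edgeR adjusted p = 0.935). Stage by stage there was 1 library per genotype, so no test could be made.

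The hmgb3b level moved in opposite directions at different stages. It was lower in clofv087b/+ than in WT at sham in 6 of 6 classes, higher at 3 dpa in 6 of 6 and lower at 7 dpa in 5 of 6. The exception at 7 dpa was the thrombocyte-like class, with 37.9 against 37.0 CPM. In cardiomyocyte-like cells, where the counts were largest, clofv087b/+ over WT was 0.779-fold at sham (95% interval 0.733 to 0.828). It was 1.19-fold at 3 dpa (1.15 to 1.24) and 0.848-fold at 7 dpa (0.812 to 0.886). Classes of a library share its cells' handling and its free RNA, so the 6 classes are not replicates. For hmgb1a the clofv087b/+ level was higher in 5 of 6 classes at 3 dpa and lower in 6 of 6 at 7 dpa.

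Whether the genes were more frequent in cycling cells was asked within each library. Cells thinned to 1000 UMIs were split into those with at least 2 UMIs of the 20 S phase and 23 G2/M genes of a list and those with none. Macrophage-like cells, of which 5.19% to 24.7% were in the first set, had higher levels of 5 of the 6 members in it. The split was tested for the members alone. The share of all genes that were higher in this set is not known, so whether the count is particular to HMGB genes cannot be told. For hmgb2b the WT levels with and without cell-cycle UMIs were 783 and 92.8 CPM at sham, 610 and 156 CPM at 3 dpa, and 598 and 88.6 CPM at 7 dpa. In clofv087b/+ they were 681 and 83.0 CPM, 642 and 136 CPM, and 530 and 114 CPM. The sets did not overlap. The mean log2 ratio was 2.55 ± 0.47 (SD, 6 libraries, higher in 6 of 6). The exact two-sided sign-flip permutation p was 0.0312, the smallest that 6 libraries allow, and 0.0375 after adjustment over the 6 members.

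Among the others, hmgb1b had a mean log2 ratio of 1.98 ± 0.20 and hmgb2a of 1.89 ± 0.23. The values were 0.58 ± 0.36 for hmgb3b and 0.25 ± 0.20 for hmgb1a, each higher in 6 of 6 libraries with the same exact permutation p. The hmgb1a difference was not found with cells thinned to 2000 UMIs, where it was higher in 3 of 6 libraries. For hmgb3a the cell-cycle sets held 0 to 10 UMIs per library. The same test, run with a small count added to each set, gave hmgb3a a mean log2 ratio of 1.00 ± 1.48. It was higher in 4 of 6 libraries (exact permutation p = 0.188, adjusted p = 0.188). Without the added count its level was lower in the cell-cycle set in the 3 WT libraries and higher in the 3 clofv087b/+ libraries. The UMIs are too few to read either result. In endothelial-like cells no member passed after adjustment. The lowest was hmgb3b, with a mean log2 ratio of 1.09 ± 0.35, higher in 6 of 6 libraries (exact permutation p = 0.0312, adjusted p = 0.125). The macrophage-like cluster led by mki67, cenpf and top2a held 976 cells. In it hmgb2a lay between 2348 and 2864 CPM and hmgb2b between 936 and 1252 CPM in the 6 libraries.

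**Figure D5:**
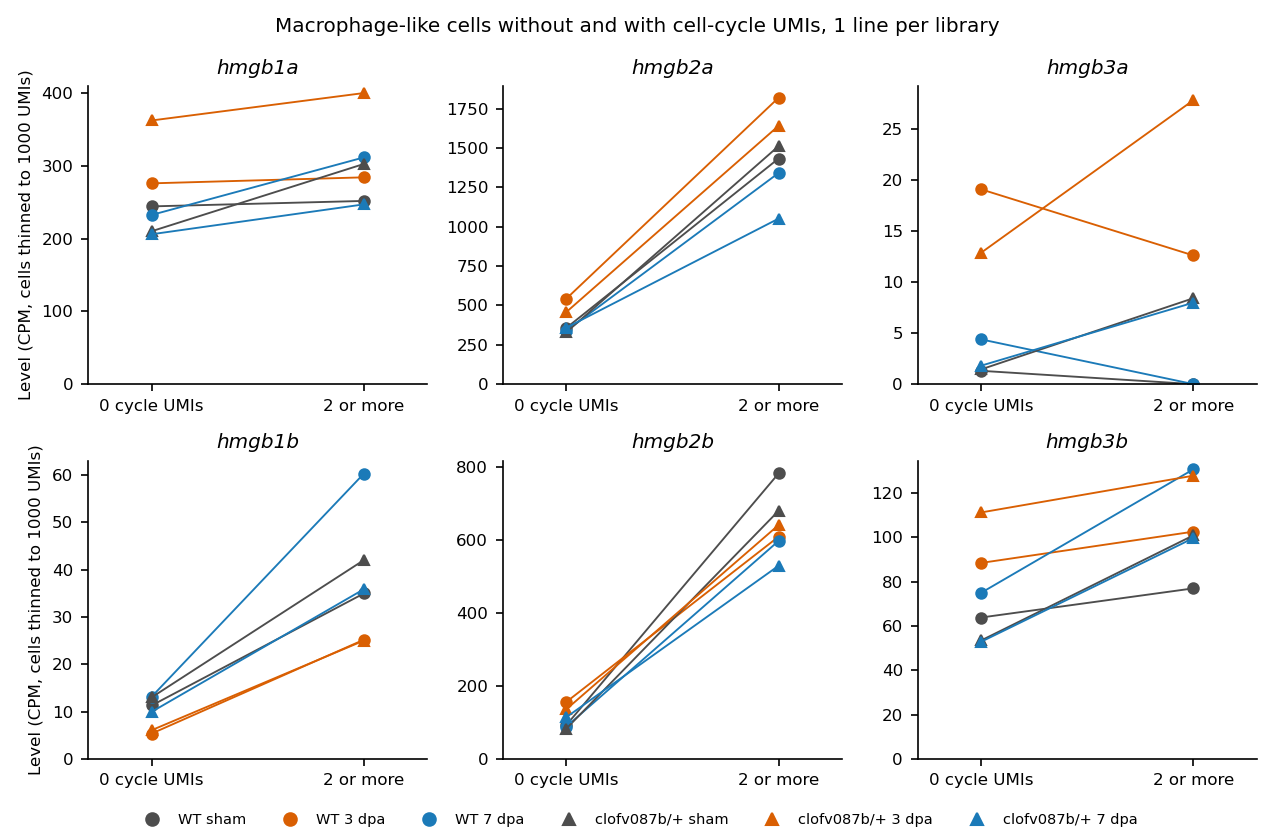
Levels in CPM (linear axes from 0 that differ between panels) of the 6 HMGB genes in macrophage-like cells with 0 and with at least 2 cell-cycle UMIs, cells thinned to 1000 UMIs; each line is 1 library, coloured by stage and shaped by genotype. The lines of hmgb1b, hmgb2a and hmgb2b rise steeply in all 6 libraries. The lines of hmgb3a, which rest on few UMIs, go up in the 3 clofv087b/+ libraries and down in the 3 WT libraries.

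In epicardium- or fibroblast-like cells the split could be read at 3 dpa alone, where 255 WT cells (30.6%) and 224 clofv087b/+ cells (27.6%) were in the cell-cycle set. At sham 2 cells were in it in each genotype, so no test was made. At 3 dpa hmgb2a was at 1424 CPM in WT cells with cell-cycle UMIs and 585 CPM in those without, and at 1665 and 558 CPM in clofv087b/+. For hmgb3a the levels were 102 and 138 CPM in WT and 156 and 180 CPM in clofv087b/+, with the cells without such UMIs higher in both. The cells without cell-cycle UMIs were also above sham. In them hmgb2a was at 585 CPM at 3 dpa and 192 CPM at sham in WT, and hmgb3a at 138 and 7.67 CPM.

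Cluster makeup also changed with stage in this class. A cluster led by col12a1b, col12a1a and fn1a held 680 cells, 674 of them from 3 dpa libraries, and its hmgb2a level was 1392 CPM in WT and 1495 CPM in clofv087b/+. Clusters present at every stage showed hmgb3a at 3 dpa as well. In the cluster led by ccl25b and dpt it was at 7.93 CPM at sham and 167 CPM at 3 dpa in WT, and at 9.45 and 188 CPM in clofv087b/+. In the cluster led by s100a10a and gstm.3 it was at 1.60 and 101 CPM in WT, with 0.584 and 93.7 CPM in clofv087b/+. Over clusters with at least 20 cells in a library, the sums at 3 dpa lay between 93.7 and 188 CPM and all others between 0.584 and 61.3 CPM.

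The cell-cycle genes changed together with the hmgb2 copies in epicardium- or fibroblast-like cells. All 20 S phase genes and all 23 tested G2/M genes rose at 3 dpa, with median log2 fold changes of 3.66 and 6.28, against -0.01 over all genes. Of all tested genes in this class 23.9% rose. The kinase cdk1 and the anaphase activator cdc20 were at 0 CPM in both sham libraries. At 3 dpa cdk1 was at 45.6 and 68.4 CPM and cdc20 at 50.5 and 62.8 CPM (WT, clofv087b/+). At 7 dpa cdk1 was at 0.33 and 0.39 CPM and cdc20 at 0.17 and 0.08 CPM. Such genes, ccne2 among them, passed the filter on low counts through the 3 dpa libraries alone, so their rise was set beforehand. How many genes of the lists did so was not counted, and the full counts are no test of the lists. In mural-like cells 8 of 16 tested S phase genes and 2 of 5 tested G2/M genes (mki67 and tpx2) rose, against 4.89% of all tested genes. Here too gins2 was at 11.9 and 19.4 CPM at 3 dpa (WT, clofv087b/+) and at 0 to 1.06 CPM in the other libraries. Such genes entered the fit through the 3 dpa libraries alone, so the mural-like counts are no test of the lists either. The G2/M rise lay mostly in the WT library. At 3 dpa mki67 was at 49.5 CPM in WT and 2.43 CPM in clofv087b/+, and tpx2 at 25.7 and 9.72 CPM. From sham to 3 dpa the summed G2/M level of mural-like cells went from 20.1 to 404 CPM in WT. In clofv087b/+ it went from 26.1 to 51.0 CPM. In macrophage-like cells 2 of 20 S phase genes (chaf1a and fen1) and 0 of 23 G2/M genes passed, and in endothelial-like cells 0 of 18 and 0 of 9. In thrombocyte-like cells 0 of 3 S phase genes passed and no G2/M gene had enough UMIs for a test. Of all tested genes, 0.696% rose in macrophage-like, 0.884% in endothelial-like and 0.792% in thrombocyte-like cells. In cardiomyocyte-like cells the summed S phase level was 48.2, 64.1 and 74.5 CPM in WT and 40.2, 53.0 and 84.1 CPM in clofv087b/+. Its highest values there were those of the 7 dpa libraries. The summed G2/M level was 14.3, 24.3 and 23.5 CPM in WT, against 10.8, 14.2 and 18.8 CPM in clofv087b/+. The highest G2/M value was at 3 dpa in WT and at 7 dpa in clofv087b/+.

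Other HMG and architectural chromatin genes went both ways in epicardium- or fibroblast-like cells, 18 of 39 tested genes higher and 6 lower at 3 dpa. Of all tested genes in this class 23.9% rose and 22.1% fell, and the counts of this list and of the lists that follow are to be read against those shares. The condensin subunits smc2 and smc4 rose, with log2 fold changes of 6.03 and 5.24. The linker histone gene h1fx fell by 2.89 on the log2 scale, from 432 to 63.1 CPM in WT and from 325 to 91.2 CPM in clofv087b/+. The HMG-box gene hmgxb4a fell by 2.74. In endothelial-like cells h1fx was the single gene of 38 to pass, and fell by 1.11 (edgeR adjusted p = 0.0466). Of all tested genes 0.851% fell in that class. In mural-like cells 3 of 32 genes of this list rose (4.89% of all tested genes). In macrophage-like cells 1 of 38 did, the nucleosome-binding hmgn3 (0.696% of all tested genes). In thrombocyte-like cells 1 of 25 rose, hmgn2 (0.792% of all tested genes). It was at 853 CPM in the WT and 3624 CPM in the clofv087b/+ library of 3 dpa.

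Of 18 tested genes of the SET complex and other HMGB partners, 8 rose and 2 fell in epicardium- or fibroblast-like cells (23.9% and 22.1% of all tested genes). The importin kpna2, with a log2 fold change of 8.94, and the DNA repair endonuclease apex1, with 2.79, had the largest increases. For kpna2 the clofv087b/+ sham library was at 0 and the WT sham library at 0.326 CPM, against 93.9 CPM (WT) and 118 CPM (clofv087b/+) at 3 dpa. Without those 3 dpa libraries kpna2 would not have passed the filter on low counts. The prothymosin gene ptmaa fell by 0.97 on the log2 scale. The RNA-binding ybx1 fell by 0.62, but its unscaled level in clofv087b/+ was 2923 CPM at sham and 3356 CPM at 3 dpa. In mural-like cells 1 of 16 genes of this list rose (npm1a) and 1 fell (ybx1), where 4.89% of all tested genes rose and 4.58% fell. In endothelial-like, macrophage-like and thrombocyte-like cells 0 of 18, 0 of 18 and 0 of 14 passed. Of 16 tested genes for receptors and signals linked to extracellular HMGB1, 0 rose and 7 fell in this class (23.9% and 22.1% of all tested genes). Among them were the receptor phosphatase ptprz1b, which fell by 2.61 on the log2 scale, and the chemokine cxcl12b, which fell by 2.30. In mural-like cells 2 of 10 tested genes of that list rose, against 4.89% of all tested genes. They were the cytokine il1b (log2 fold change 1.76, edgeR adjusted p = 0.0164) and cxcl12b (1.5, edgeR adjusted p = 0.0222). In macrophage-like, endothelial-like and thrombocyte-like cells 0 of 20, 0 of 16 and 0 of 6 genes of that list passed.

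Over 52 sums of a class in a library with at least 50 cells, the genes with the pattern most like each member were ranked among 13811 genes by Pearson's r of log2(CPM + 10). For hmgb3a these were st8sia6 (r = 0.79), sub1b (0.75), acad9 (0.75), gstt2 (0.73) and eci1 (0.73). For hmgb3b they included atp5mc1 (r = 0.85), ndufa10 (0.84), sdhdb (0.80) and phb (0.79). For hmgb2b they were si:ch211-288g17.3 (r = 0.92), eif4h (0.88), ilf2 (0.88), snrpb (0.88) and snrpd1 (0.87). For hmgb2a they were psmb3, CABZ01044053.1, adrm1, smc1al and smarca4a (r from 0.84 to 0.85). For hmgb1a they were ubtf, actn4, mapk3, si:dkey-250d21.1 and emc10 (0.86 to 0.88), and for hmgb1b grk4, elof1, nucks1b, afap1l2 and capns1b (0.83 to 0.84). Between the members r ranged from -0.11 (hmgb1b with hmgb3b) to 0.66 (hmgb2a with hmgb1a and with hmgb2b). The points share libraries, classes and depth, so r describes these sums only.

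Within cardiomyocyte-like cells of a library, cells thinned to 5000 UMIs with and without an hmgb3a UMI were set side by side for the other members. At 7 dpa the cells with hmgb3a had more hmgb2b, 113 against 72.4 CPM in WT and 119 against 79.3 CPM in clofv087b/+. They also had more hmgb2a, 249 against 198 CPM in WT and 302 against 226 CPM in clofv087b/+. At sham hmgb2b was at 67.9 CPM in WT cells with hmgb3a and 71.2 CPM in those without, and at 92.3 and 81.1 CPM in clofv087b/+. At 3 dpa, where 1793 WT cells had hmgb3a and 688 did not, hmgb2b was at 75.2 and 74.1 CPM and hmgb2a at 470 and 476 CPM. In clofv087b/+ at 3 dpa hmgb2b was at 78.8 and 75.8 CPM and hmgb2a at 471 and 429 CPM (log2 ratio 0.13, 95% counting interval 0.04 to 0.23). There hmgb1b was at 31.2 CPM with and 20.4 CPM without hmgb3a, against 33.8 and 33.1 CPM in WT. Cells of a library are not replicates, and this comparison has no test.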

How the data were processed

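For each of the 6 libraries the authors deposited a matrix of UMI counts, unnormalized, by gene and barcode. Alignment to GRCz11 with Cell Ranger 3.0.2 and the use of Seurat 3.1.4 are named in the submitters' processing notes. The annotation, the rule for calling cells and the counting of reads shared by paralogues are not given in the sources used here. Members and gene lists were chosen with earlier results of these data known.

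Barcodes with at least 200 genes, 500 UMIs and at most 30% mitochondrial UMIs were kept. Of these, the cells with the highest doublet scores were removed, at a preset 0.8% per 1000 barcodes of the library (7.55% to 11.9%). Cells were clustered on 2000 variable genes without the members (30 components, 15 neighbours, Leiden resolution 1; scanpy 1.11.5) into 36 clusters. Clusters were named from marker lists, and 7 stayed unnamed, so class values may differ from those of other annotations. Counts were summed per class and library and tested with edgeR 4.0.16 (quasi-likelihood, TMM, genotype plus stage, Benjamini-Hochberg over all tested genes, threshold 0.05). The filter on low counts kept genes with enough UMIs in the libraries of a single stage. Genes nearly absent elsewhere could therefore enter a fit through the stage where they were high. With 1 library per group, p-values measure the spread left by that additive fit, moderated over all genes of the class, and intervals cover counting error only. Comparisons at 3 and 7 dpa share their sham libraries. On simulated counts for 3 dpa over sham at a dispersion of 0.02, the share of genes changed by log2 2 that was recovered ranged from 75.0% (endothelial-like, 12020 genes) to 96.9% (macrophage-like, 14392 genes). For genes changed by log2 1 it ranged from 19.8% (endothelial-like) to 66.3% (macrophage-like), with 20.2% in thrombocyte-like and 30.4% in mural-like cells. A member that did not pass is therefore not shown to be unchanged. Named genes were the 6 members, the 5 genes most like each (1 of them is not reported here), and the 2 largest called changes per list and direction. The alternatives were DESeq2 1.42.0, its size factors, no filter on low counts, doublets kept, a stricter cell filter and each library left out. Keeping doublets also rebuilt the clusters and classes. Allowing the members in the clustering changed nothing, since 0 of 6 were variable genes, and is no check.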

Additional observations from a re-analysis of the deposited data

Results flagged for a closer look

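The 7 unnamed clusters stayed outside the comparisons, and all 6 members had higher levels in them at 3 dpa than at sham in both genotypes. For hmgb1b the difference was within counting error, with 39.0 and 42.1 CPM in WT and 34.4 and 35.3 CPM in clofv087b/+ (sham, 3 dpa). The counting intervals of the other 5 lay above 0. In these cells hmgb3a was at 28.9, 121 and 17.0 CPM in WT (sham, 3 dpa, 7 dpa) and at 27.0, 107 and 19.1 CPM in clofv087b/+. Its log2 ratio of 3 dpa over sham was 2.07 in WT and 1.99 in clofv087b/+. For hmgb3b the log2 ratio was 1.68 in WT and 1.96 in clofv087b/+. For hmgb2a it was 1.03 in WT and 0.54 in clofv087b/+. For hmgb2b it was 0.86 in WT and 0.48 in clofv087b/+. For hmgb1a it was 0.40 in WT and 0.59 in clofv087b/+. With 1 library per group these ratios have no test. The largest of these clusters held 7674 cells, at a median depth of 0.139 of the library median. Mitochondrial genes were among its leading genes, and no marker of its best-scoring class was raised. A smaller cluster held 51 cells, 49 of them from WT 3 dpa, and scored highest for cardiomyocyte markers. The part of free RNA in these levels was not tested.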

How the results depend on the processing

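Of the 30 member tests at 3 dpa, 8 passed, and between 8 and 11 passed under the other tools and filters. Leaving out each library in turn gave 5 to 11, with 5 without the clofv087b/+ 3 dpa library. At 7 dpa 1 passed, 2 passed with no filter on low counts, and leaving out a library gave 0 to 2, with 0 without the WT 7 dpa library. Between genotypes 0 passed under every setting run, and leaving out a library gave 0 to 0. The hmgb3a ratio of 3 dpa over sham in WT cardiomyocyte-like cells was 8.77-fold, 7.34-fold with TMM scaling and 8.25-fold with doublets kept and classes rebuilt. In clofv087b/+ it was 6.70-fold, and 5.95-fold with doublets kept and classes rebuilt. That rebuilding left a cluster of 4445 cells led by cfap57 and myh10 unnamed, and the class went from 3306 to 2366 cells in WT sham and from 1301 to 609 in clofv087b/+ sham. The parts of the doublets and of the new classes were not told apart. The epicardium- or fibroblast-like call of hmgb1a was lost with DESeq2 (adjusted p = 0.0522) and with the stricter cell filter (adjusted p = 0.0509). No sign reversed in the results recomputed. The stricter cell filter and the fit without the clofv087b/+ sham library left 29 member tests at each stage. No paired analysis was possible because each group held 1 library. Depth limits hmgb3a in thrombocyte-like cells, which had 1 to 7 UMIs per library.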

Other observations

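In neutrophil-like cells, 42 to 77 per library, hmgb1a was at 314, 867 and 321 CPM in WT (sham, 3 dpa, 7 dpa). In clofv087b/+ it was at 374, 911 and 412 CPM, and both 3 dpa libraries were highest. The class had under 50 cells in some libraries and was not tested. Glial-like cells, too few at 3 dpa for a level (1 cell in each library), had hmgb3a at sham and at 7 dpa. At sham it was at 119 CPM in 35 clofv087b/+ cells (10 UMIs, 57.2 to 219), and 7 WT cells held 1 UMI. At 7 dpa it was at 218 CPM in 24 WT cells (31 UMIs, exact Poisson 95% interval 148 to 310) and at 141 CPM in 69 clofv087b/+ cells (98 UMIs, 114 to 171).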
